A study of Mus musculus with 2 samples.

Results

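The genes of cholesterol synthesis, uptake and storage were read in the adrenal glands of 2 female mice. The set held 33 genes, matched by symbol, out of 55536 annotated genes. It covered 20 enzymes of the synthesis pathway, 5 genes of sterol sensing, 5 of uptake and lysosomal export and 3 of cholesteryl ester storage and release. The mice were of the hybrid strain B6CASTF1/J, the first-generation cross of C57BL/6J and CAST/EiJ, and were 4 days old. Both carried the same hybrid genotype, and the labels name no altered allele and no treatment. Each level sums the transcripts of both parental alleles. The mice formed 1 group with 2 biological replicates, so the design held no comparison between conditions, and the labels state no purpose. One label field gives both libraries the same animal number and another gives them different ones, and both name the same donor record. The spread between the replicates may therefore be partly technical.

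Cholesterol is built from acetyl units. Early enzymes make mevalonate and turn it into isoprenoid building blocks, later ones join these into squalene, and the last ones close the rings and trim the sterol to cholesterol. The proteins of the SREBF genes switch on this pathway when sterol is scarce, are escorted by Scap, and are held back in the endoplasmic reticulum by the Insig proteins. Adrenal cortex cells draw on cholesterol for steroid hormones and, in mice, take much of it from lipoproteins and keep it as esters in lipid droplets.

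Promoter sequences are shown for 6 members that span the pathway: an early and a decarboxylating enzyme of the mevalonate steps, a late sterol enzyme, a sterol sensor, a lysosomal lipase and the esterifying enzyme. They come from RefSeq on the build GRCm38.p6, the assembly also called mm10 that the deposited tables use, and run 5′ to 3′ on the gene's strand up to the RefSeq start, without bases of an annotated exon. Capitals mark the letters CCAAT on either strand (ATTGG on the strand shown) and, in Hmgcs1, the letters TCACNCCAC. CCAAT is known as the NF-Y box, and TCACNCCAC as the core of a sterol regulatory element. The regions are chr13:119690101-119690350 on the plus strand for Hmgcs1, chr8:122443423-122443672 on the minus strand for Mvd and chr9:42264301-42264550 on the minus strand for Sc5d. Those of the others are chr5:28071162-28071362 on the plus strand for Insig1, chr19:34527475-34527724 on the minus strand for Lipa and chr1:156474332-156474578 on the minus strand for Soat1.
Hmgcs1: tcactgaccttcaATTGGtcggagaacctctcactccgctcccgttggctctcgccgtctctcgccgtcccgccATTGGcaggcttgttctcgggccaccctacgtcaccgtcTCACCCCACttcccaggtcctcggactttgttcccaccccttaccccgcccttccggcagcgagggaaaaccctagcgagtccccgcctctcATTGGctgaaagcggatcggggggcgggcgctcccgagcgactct
Mvd: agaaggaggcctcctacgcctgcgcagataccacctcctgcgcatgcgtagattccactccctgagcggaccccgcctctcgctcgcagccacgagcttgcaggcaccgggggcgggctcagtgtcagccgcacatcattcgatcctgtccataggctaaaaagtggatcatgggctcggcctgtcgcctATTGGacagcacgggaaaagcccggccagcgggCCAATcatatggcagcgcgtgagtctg
Sc5d: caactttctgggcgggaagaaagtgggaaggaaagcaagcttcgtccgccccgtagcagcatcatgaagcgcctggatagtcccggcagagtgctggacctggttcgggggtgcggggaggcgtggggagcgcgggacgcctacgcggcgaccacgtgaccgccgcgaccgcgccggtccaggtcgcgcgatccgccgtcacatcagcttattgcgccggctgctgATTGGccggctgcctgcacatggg
Insig1: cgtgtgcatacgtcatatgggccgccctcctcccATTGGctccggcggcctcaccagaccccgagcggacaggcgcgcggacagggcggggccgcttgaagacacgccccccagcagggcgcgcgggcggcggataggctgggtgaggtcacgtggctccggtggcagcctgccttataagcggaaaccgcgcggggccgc
Lipa: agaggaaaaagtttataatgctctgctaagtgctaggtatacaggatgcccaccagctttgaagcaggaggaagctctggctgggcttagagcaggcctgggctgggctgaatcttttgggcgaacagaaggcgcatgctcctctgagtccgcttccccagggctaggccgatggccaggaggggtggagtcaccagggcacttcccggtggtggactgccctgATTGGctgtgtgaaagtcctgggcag
Soat1: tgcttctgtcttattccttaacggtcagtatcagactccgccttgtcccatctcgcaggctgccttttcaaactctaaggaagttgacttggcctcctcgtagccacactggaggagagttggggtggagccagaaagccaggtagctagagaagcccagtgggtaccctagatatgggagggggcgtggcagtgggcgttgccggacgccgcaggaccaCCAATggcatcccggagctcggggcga

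A promoter window was given for 27 of the 33 members. Fdps, Fdft1, Sqle, Scarb1, Npc1 and Soat2 had none and were not searched. Where a member had several windows, the one nearest to the start of its transcript with the most counts was used. The window was within 50 bases of that start for 21 of the 27 members. The shares over all promoters and over those of detected genes count every window, so genes with several windows count more than once there. CCAAT on either strand lay within the 250 bases upstream in 21 of the 27 members (77.8%), against 33.8% of all 32851 RefSeq promoters and 35.1% of the 13077 promoters of protein-coding genes detected in these glands. It was present for 15 of 17 synthesis enzymes and had no match for Acat2, Pmvk, Srebf1, Scap, Insig2 and Lipe. Unlike the sequences shown, the windows searched kept bases of annotated exons. Such bases filled the 250 of Idi1, Tm7sf2 and Dhcr7 and 214 of those of Msmo1, all with a match. They made up 183 bases for Insig2 and 144 for Pmvk, both without a match. In the sequences above, the match nearest to the start begins 26 bases from the end of the Lipa sequence, 27 bases from that of Soat1 and 24 bases from that of Sc5d, counting the last base as 1. TCACNCCAC, searched on both strands, was found for 1 member, Hmgcs1, and in 1.05% of all promoters. The looser patterns TCANNCCA and TCACNCC were found for 7 and 5 of the 27 members and in 13.3% and 13.4% of all promoters. CAAGGTCA, a half-site known for the steroidogenic factor NR5A1, was found for 0 of 27 members and in 1.33% of all promoters. The matches of both motifs in Hmgcs1 do not overlap. The motifs were kept from 8 patterns after the matches had been seen, a match describes the letters only, and these figures carry no test.

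The libraries were deep and similar in size. The expected counts summed to 31838341 in replicate 1 and 32931868 in replicate 2. Levels are in TPM, the transcript abundance per length that the authors scaled to a fixed total in each library. Adrenal markers were abundant, with all 6 cortex markers at 1 TPM or more in both libraries and a summed level of 5993 and 6604 TPM. Of the ovary markers, 0 of 4 reached 1 TPM in both libraries. Markers of neighbouring organs differed: the level of 5 pancreas genes together was 3611 TPM in replicate 1 but 0.49 TPM in replicate 2, where 3 of the 5 were at 0. The 6 kidney tubule genes summed to 90.4 and 9.62 TPM, the 5 liver genes to 106 and 449 TPM, and the 5 skeletal muscle genes to 336 and 2136 TPM. The part of this tissue in any difference between the libraries was not tested. In whole glands, fewer cells of a type and less RNA per cell cannot be told apart.

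The cholesterol genes were expressed together but over a wide range of levels. Of the 33, 32 reached 1 TPM in both replicates, against 26.4% of all annotated genes and 59.3% of protein-coding genes. The exception was Soat2. The sum over the set was 1053 TPM in replicate 1 against 1072 TPM in replicate 2, and the median member stood at 16.0 TPM. Scarb1, the receptor that takes cholesteryl esters from high-density lipoprotein, and Soat1, which esterifies cholesterol for storage, together held 37.8% and 40.4% of the sum. Of all members, 5 ranked in the top decile of the 13054 nuclear protein-coding genes detected, namely Scarb1, Soat1, Hmgcs1, Dhcr7 and Lipe. The median of those 13054 genes was 12.4 TPM, with 20 members above it and 12 of the detected members below. In the order of levels, the ranges of the 2 replicates overlapped for 14 of 32 neighbouring pairs. Scarb1 and Soat1 overlapped at the top, and Hsd17b7 and Mvd at the low end above Soat2.

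**Figure D1:**
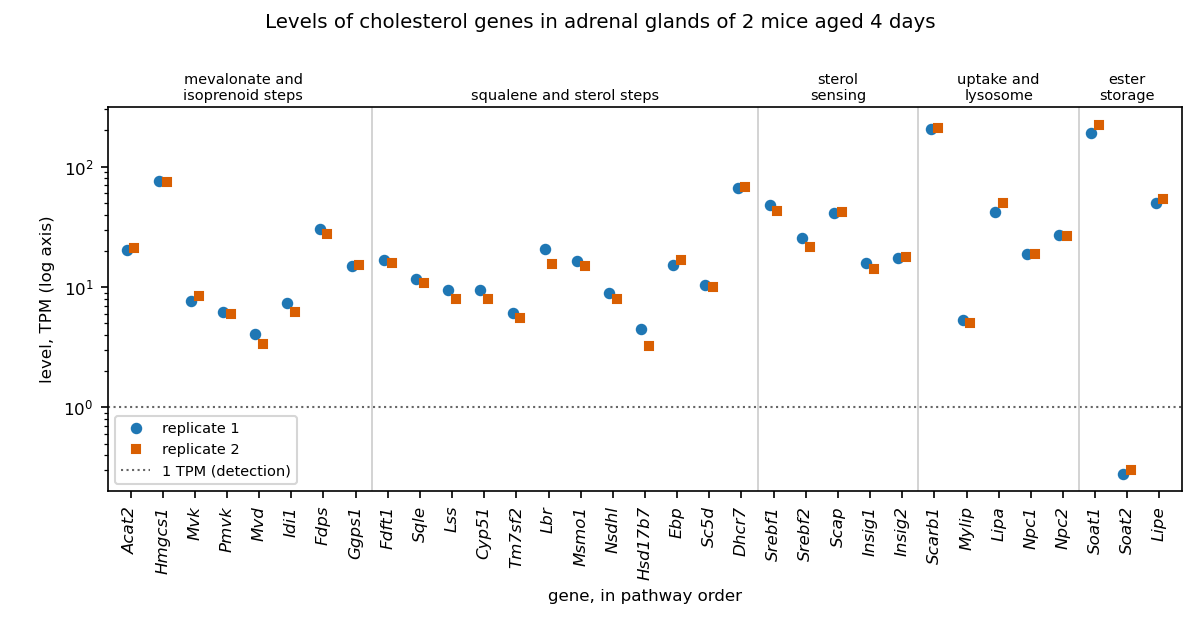
Level of each of the 33 genes in TPM on a log axis, in pathway order, with 1 point per replicate and no error bar. Scarb1 and Soat1 stand highest in both replicates, Hmgcs1 and Dhcr7 above the other synthesis enzymes, and Soat2 alone lies under the dotted line at 1 TPM.

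The steps from acetyl units to isoprenoids held 1 abundant enzyme and a run of low ones. Hmgcs1, which makes hydroxymethylglutaryl-CoA, measured 76.2 and 74.0 TPM in replicates 1 and 2, on 7586 and 7601 counts. The gene spans 119690379 to 119708260 of chromosome 13 (plus strand). The replicates were nearly level, and the log2 ratio of replicate 2 over replicate 1 was -0.00. Acat2, the cytosolic thiolase before it, stood at 20.2 and 21.03 TPM. Within each replicate the thiolase was lower, with a log2 ratio of Acat2 over Hmgcs1 of -1.87 ± 0.07 (SD, n = 2).

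The kinases and the decarboxylase that follow were among the lowest genes of the set. Mevalonate kinase, Mvk, measured 7.68 and 8.44 TPM, and phosphomevalonate kinase, Pmvk, 6.16 and 6.02 TPM. The decarboxylase gene Mvd spans 122433601 to 122443422 of chromosome 8 (minus strand) and measured 4.11 and 3.37 TPM, on 210 and 178 counts. Mvd was lower in replicate 2, with a log2 ratio of -0.24 (95% counting interval -0.54 to 0.05), and did not pass the test described below. Hmgcs1 exceeded Mvk by 3.22 ± 0.13 on the log2 scale of TPM (SD, n = 2), the largest difference between neighbouring synthesis steps, in both replicates.

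Idi1, which isomerises the isoprenoid unit, measured 7.31 and 6.21 TPM on 648 and 557 counts. Fdps, which joins these units into farnesyl diphosphate, measured 30.3 and 27.4 TPM, and Idi1 was lower than Fdps by a log2 ratio of -2.10 ± 0.06 (SD, n = 2). Ggps1, at the branch toward geranylgeranyl groups for proteins, measured 14.9 and 15.3 TPM. Fdps exceeded Ggps1 by 1.02 and 0.84 on the log2 scale. The 8 genes summed to 167 and 162 TPM, which was 15.8% and 15.1% of the set.

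The steps from squalene to cholesterol ran at low to middle levels and ended in an abundant enzyme. Squalene synthase, Fdft1, measured 16.8 and 15.9 TPM, squalene epoxidase, Sqle, 11.7 and 10.8 TPM, and lanosterol synthase, Lss, 9.49 and 8.01 TPM. Cyp51, the lanosterol demethylase, measured 9.42 and 8.03 TPM. Each was lower in replicate 2 by TPM, and Lss and Cyp51 were level with each other over all transcripts. In complete coding transcripts alone Lss was lower than Cyp51, at log2 ratios of -1.34 and -1.32, while the second quantification gave 0.28 and 0.13. Fdft1 shares 774 exonic bases, 18.3% of its own, with Ctsb on the other strand, a gene with 14908 and 16550 counts. No source used here says whether reads were counted by strand, so the Fdft1 value is uncertain.

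The ring reductase step can be carried out by Tm7sf2 or by Lbr, a protein of the inner nuclear membrane that also binds lamins. Tm7sf2 measured 6.07 and 5.57 TPM, and Lbr 20.6 and 15.6 TPM. Lbr was the higher of these in both replicates, by a log2 ratio of Tm7sf2 over Lbr of -1.76 and -1.48. Msmo1, Nsdhl and Hsd17b7 encode the oxidase, dehydrogenase and ketoreductase that remove methyl groups from the sterol ring. Over all transcripts they stepped down in that order in both replicates, from 16.5 and 15.01 TPM for Msmo1 through 8.99 and 7.98 TPM for Nsdhl. Hsd17b7, the lowest of them, spans 169949535 to 169969241 of chromosome 1 (minus strand) and measured 4.45 and 3.26 TPM, on 370 and 304 counts. In complete coding transcripts alone Msmo1 and Nsdhl were level in replicate 1, at 8.70 and 8.72 TPM, and their log2 ratio in replicate 2 was 0.39.

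Ebp, the sterol isomerase, measured 15.3 and 16.9 TPM, and Sc5d, the sterol desaturase, 10.3 and 9.97 TPM. Dhcr7, which makes cholesterol in the last step of 1 branch, measured 67.0 and 68.1 TPM on 4393 and 4623 counts. It spans 143823145 to 143848410 of chromosome 7 (plus strand). Dhcr7 stood above every other enzyme of this group in both replicates, and Sc5d was lower than it by a log2 ratio of -2.73 ± 0.05 (SD, n = 2). The 12 genes of these steps summed to 197 and 185 TPM, 18.7% and 17.3% of the set. Across all 20 synthesis enzymes, 9 lay under 10 TPM, 9 from 10 to 31 TPM and 2, Hmgcs1 and Dhcr7, above 60 TPM.

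The sensing genes were of middle abundance. Srebf1, which encodes a factor known more for fatty acid genes, measured 48.3 and 42.8 TPM on 3111 and 3327 counts. Srebf2, whose factor is known more for cholesterol genes, measured 25.6 and 21.5 TPM on 2949 and 2655 counts. Both were lower in replicate 2 by TPM, while by counts Srebf1 was higher in replicate 2. The log2 ratio between the replicates was -0.17 for Srebf1 from deposited TPM and 0.09 from scaled counts. Scap, the escort of both factors, measured 41.6 and 41.9 TPM. Insig1 measured 15.9 and 14.1 TPM and Insig2 17.4 and 17.9 TPM, so that Insig2 was higher than Insig1 in each replicate, by log2 ratios of Insig1 over Insig2 of -0.13 and -0.34. The 5 genes summed to 149 and 138 TPM.

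Of the 5 uptake and lysosomal genes in the set, the receptor gene Scarb1 was the highest. Scarb1 spans 125277087 to 125341094 of chromosome 5 (minus strand) and measured 208 and 209 TPM on 15086 and 15488 counts. By mean level it had rank 206 among nuclear protein-coding genes, and its replicates were nearly level. Mylip, a ubiquitin ligase that removes lipoprotein receptors, was low at 5.28 and 5.04 TPM. Lipa, the acid lipase that frees cholesterol from lipoprotein esters in the lysosome, measured 42.2 and 50.1 TPM on 3739 and 4550 counts. It was higher in replicate 2. Npc1 and Npc2, which pass the freed cholesterol out of the lysosome, measured 18.9 and 18.8 TPM and 27.0 and 26.5 TPM. Npc2 was the higher in each replicate, by a log2 ratio of Npc1 over Npc2 of -0.51 ± 0.01 (SD, n = 2). The 5 genes held 28.6% and 28.9% of the set.

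Of the esterifying enzymes, Soat1 was abundant and its paralog Soat2 was under the detection level. Soat1 spans 156424525 to 156474331 of chromosome 1 (minus strand) and measured 190 and 224 TPM on 15189 and 17524 counts. Soat2, the form known from liver and intestine, measured 0.28 and 0.30 TPM on 18 and 20 counts. The log2 ratio of Soat1 over Soat2 was 9.43 ± 0.10 (SD, n = 2) with a pseudocount of 0.01 TPM, and 7.33 with a pseudocount of 1 TPM. Lipe, the hormone-sensitive lipase that releases cholesterol from stored esters, measured 49.8 and 53.4 TPM on 3860 and 4431 counts. Soat1 and Lipe were both higher in replicate 2. The 3 genes held 22.8% and 25.9% of the set.

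The libraries were then compared gene by gene, to show how far the levels of single members varied between them. Rounded counts were set against each other by a two-sided exact binomial test given their total. Its p-values were adjusted by the Benjamini-Hochberg method over the 17514 genes whose mean count was 20 or more. The test asks whether a gene differed beyond the sampling of reads. It compares the libraries and no conditions. Of the 32 members tested, 9 passed at an adjusted p under 0.05, against 30.0% of all genes tested, a share near that background. No member differed 2-fold (0 of 32), against 5.67% of all genes, and the median log2 ratio was 0.005 for the members and 0.01 for all genes. A common dispersion fitted by edgeR over the 17514 genes, markers of neighbouring organs included, gave a coefficient of variation between the libraries of 0.271. The median absolute log2 ratio of these genes was 0.134, and 86.4% of them lay within 0.5. Under other settings the members past the test numbered 10 with DESeq2 size factors (29.6% of all genes), 11 with total counts (30.5% of all genes) and 16 with the spike-in sum (33.9% of all genes). They numbered 12 in the second quantification (32.5% of all genes) and 7 with no filter on counts (17.6% of all genes). With 2 animals there is no test of members against the spread between animals.

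The members higher in replicate 1 by this test were Idi1, Lss, Hsd17b7 and Srebf2, 4 of 32 against 13.9% of all genes. Hsd17b7 had the most negative log2 ratio, -0.29 (95% counting interval -0.51 to -0.06, adjusted p 0.0386 by the exact test). The log2 ratios were -0.22 for Idi1 (adjusted p 0.0297 by the exact test), -0.22 for Lss (adjusted p 0.0111) and -0.16 for Srebf2 (adjusted p 0.000388). With no filter on low counts Hsd17b7 had an adjusted p of 0.06 by the exact test, and from the counts of the second deposited quantification Idi1 had 0.124. Cyp51, at a log2 ratio of -0.16 (adjusted p 0.0671 by the exact test), and Insig1, at -0.15 (adjusted p 0.0572), did not pass. Both passed when the counts were scaled by DESeq2 size factors, with adjusted p 0.0495 and 0.0374 by the exact test.

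The members higher in replicate 2 were Srebf1, Scap, Lipa, Soat1 and Lipe, 5 of 32 against 16.1% of all genes. Lipa had the largest log2 ratio, 0.28 (95% counting interval 0.22 to 0.34, adjusted p 3.37e-17 by the exact test). Soat1 followed at 0.20 (0.17 to 0.23, adjusted p 3.4e-35) and Lipe at 0.20 (0.13 to 0.26, adjusted p 1.02e-08). Lipa, Soat1 and Lipe free or store cholesteryl esters. Scap, at 0.11 (adjusted p 0.00362), and Srebf1, at 0.09 (adjusted p 0.0354), did not pass under spike-in scaling, where the exact test gave adjusted p 0.573 and 0.829. With total counts neither passed (adjusted p 0.127 and 0.332 by the exact test). Srebf1 also missed the threshold under DESeq2 size factors and with no filter on counts (adjusted p 0.0698 and 0.0552 by the exact test).

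By sign alone, 16 members were higher in replicate 1 and 16 in replicate 2 with TMM scaling (edgeR's trimmed mean of M values), against 48.0% of all genes higher in replicate 1. All 32 also had a mean count of at least 100, where 44.7% of all genes were higher in replicate 1 and 32.6% of all genes passed the exact test. The split moved to 20 of 32 higher in replicate 1 with total counts (57.7% of all genes), 22 with the spike-in sum (65.5% of all genes) and 21 of 32 with deposited TPM (57.8% of all genes). Spike-in scaling shifted the median of all genes from 0.01 to -0.07. Under 6 ways of scaling or quantifying, of all 33 members with Soat2 included, 15 were lower in replicate 2 every time, 8 were higher every time and 10 changed sign. TMM, DESeq2, total-count and spike-in scaling use the same counts and differ only by a constant per library, so these ways are not independent. Of the 20 synthesis enzymes, 12 were higher in replicate 1 and 8 in replicate 2, and 11 were lower in replicate 2 under all 6. In complete coding transcripts alone, Tm7sf2 and Msmo1 of these 11 were higher in replicate 2, at log2 ratios of 0.35 and 0.23, and the rest were lower. With spike-in scaling, 5 of 8 mevalonate and isoprenoid genes and 11 of 12 squalene and sterol genes were higher in replicate 1, beside the 65.5% of all genes. Scarb1 had a log2 ratio of 0.03 with TMM and -0.05 with spike-in scaling, where it passed the exact test (adjusted p 0.0196).

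Markers of some other cells moved in the same direction as Lipa, Soat1 and Lipe, and others moved the other way. All 5 liver and all 5 skeletal muscle markers were higher in replicate 2 (median log2 ratios 2.20 and 2.75). All 5 pancreas and all 6 kidney tubule markers were higher in replicate 1. Of all genes tested, 16.1% were higher in replicate 2 by the exact test and 13.9% in replicate 1. All 6 cortex markers were higher in replicate 2 by the exact test, with a median log2 ratio of 0.15, as were 5 of 5 medulla markers (0.29) and 5 of 5 macrophage markers (0.52), whose summed level was 70.5 and 100 TPM. Of the 5 adipose markers, 4 were higher in replicate 2 and 1 in replicate 1, with sums of 341 and 362 TPM. The part of these cells in the differences of the ester genes was not tested.

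**Figure D2:**
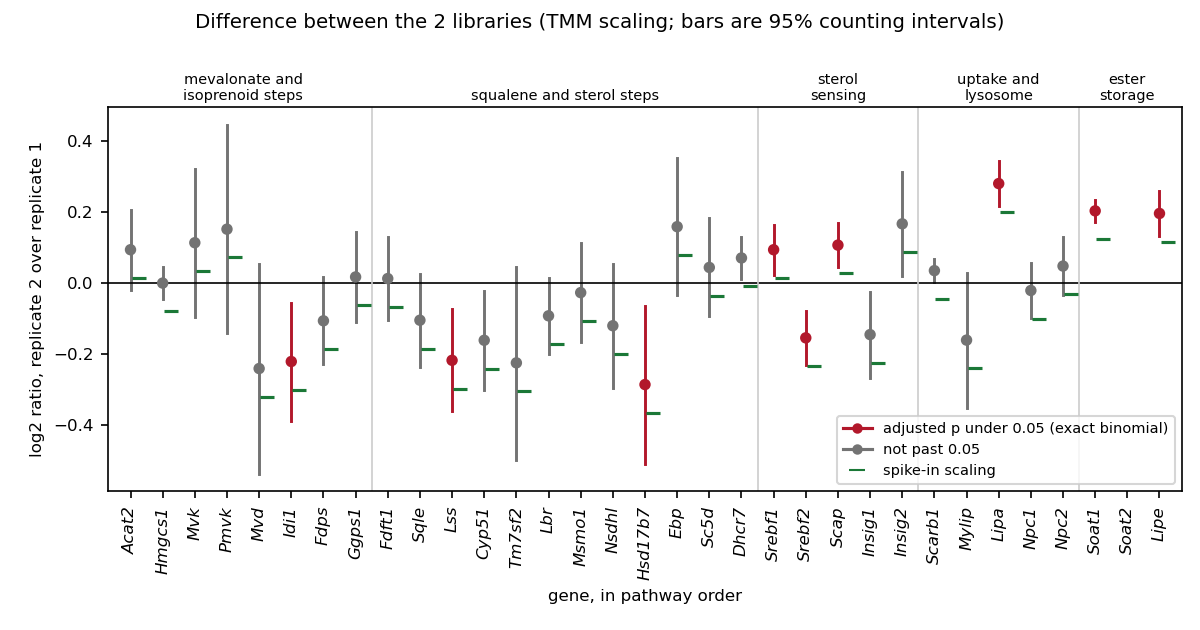
Log2 ratio of replicate 2 over replicate 1 for the 32 tested genes, with TMM scaling, vertical bars for 95% counting intervals, red for an adjusted p under 0.05 and green marks for spike-in scaling. Lipa, Soat1 and Lipe lie above 0 under both scalings, and no ratio reaches 0.5 in either direction; Soat2 was not tested.

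The levels were checked against the second deposited quantification and against complete protein-coding transcripts alone. The TPM of the first quantification includes Rn7s1 and Rn7s2, which held 30.2% and 30.7% of it, and the second gives members TPM values 1.86 times as high at the median, against 1.82 times for detected nuclear protein-coding genes. After both were rescaled to nuclear protein-coding genes, the median ratio of second to first was 0.944, from 0.724 for Soat1 to 1.599 for Soat2, with Lbr at 1.52. The ranges of Scarb1 and Soat1 no longer overlapped in the second quantification, which put Scarb1 at 502 and 481 TPM and Soat1 at 282 and 308 TPM. Both stood above every other member there too.

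Pairs of genes read within a replicate showed which orders held. Lbr over Tm7sf2 held in the second quantification, at log2 ratios of Tm7sf2 over Lbr of -2.35 and -2.26, and in complete coding transcripts, at -2.10 and -1.67. Fdps over Ggps1 held in both, and was 2.05 and 2.11 in complete coding transcripts. Npc2 stood above Npc1 in all 3 readings and both replicates. Insig1 against Insig2 turned: the log2 ratio was -0.09 and -0.29 in the second quantification but 0.89 and 0.44 in complete coding transcripts. Srebf1 exceeded Srebf2 by 0.92 and 0.99 over all transcripts, while the same log2 ratio was -0.08 and 0.17 in complete coding transcripts alone. The log2 ratio of Lipe over Lipa was 0.24 and 0.09, and 0.08 and -0.03 in the second quantification.

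**Figure D3:**
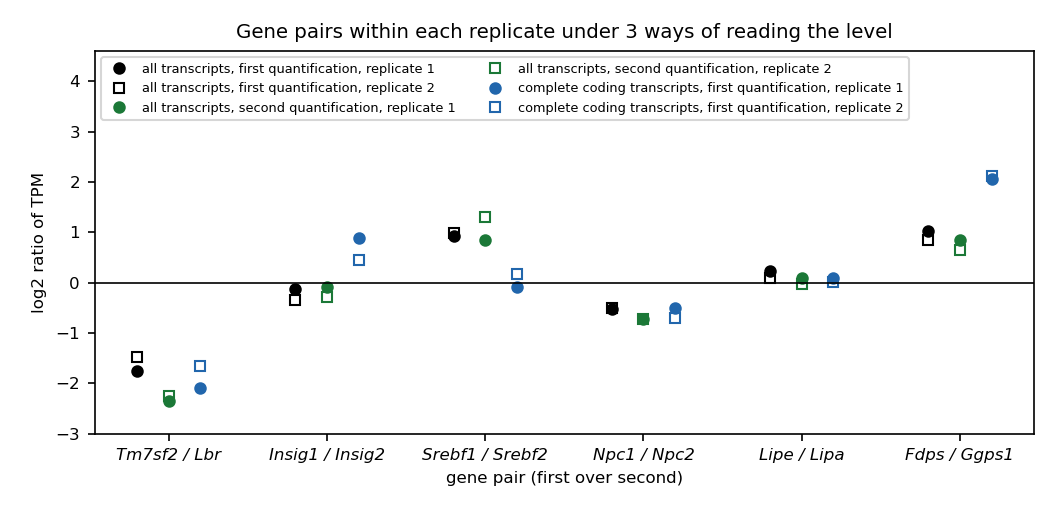
Log2 ratio of TPM within each replicate for 6 gene pairs, from all transcripts of the first quantification, all transcripts of the second, and complete coding transcripts of the first. Tm7sf2 lies below Lbr and Npc1 below Npc2 in every reading, while Insig1 over Insig2 changes sign and Srebf1 over Srebf2 drops to near 0 in complete coding transcripts.

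Most member levels came from complete coding transcripts, with exceptions, of which the main ones are named below. For the 32 detected members, the transcript with the largest TPM share was a complete protein-coding one for 30, and it was the same in both replicates for 31. At the median, complete coding transcripts held 82.8% and 88.2% of a member's TPM and 92.8% and 94.3% of its counts. The second quantification named the same leading transcript for 24 members and another for 8. Retained-intron transcripts had some level in both replicates for 24 members, and at least 20% of TPM in both for 4.

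Srebf1 and Insig2 differed between shares of TPM and of counts. Processed transcripts, which carry no reading frame, held 53.1% and 42.4% of its TPM but 11.9% and 8.1% of its counts. Its coding transcript Srebf1-201 held 34.0% and 39.97% of the TPM and 68.2% and 68.8% of the counts. Insig2-201 held 43.5% and 47.2% of the TPM of Insig2 and 83.8% and 86.1% of its counts. Lss was led in replicate 1 by a processed transcript of 352 bases, with 41.6% of TPM against 24.0% in replicate 2. This transcript held 3.6% and 2.1% of the counts. The second quantification gave it 0.0% in both replicates, and a retained-intron transcript of 641 bases led Lss there by TPM. Complete coding transcripts held 29.7% and 30.96% of the TPM of Lss in the first quantification. Ebp was led by an incomplete coding transcript of 526 bases, at 37.5% and 40.9% of TPM, and complete coding transcripts gave 24.2% and 23.8%. By counts of the first quantification too, complete coding transcripts held less than 50% of both Lss and Ebp. They held 46.1% and 48.6% for Lss and 44.4% and 44.7% for Ebp. Retained-intron transcripts there held 50.3% and 49.3% of the counts of Lss and 37.7% and 35.4% of those of Ebp. In the second quantification, complete coding transcripts held 73.4% and 76.9% of the counts of Ebp and 45.9% and 51.4% of those of Lss. Its leading Ebp transcript by TPM was the complete Ebp-201, at 47.5% and 49.1%. For Tm7sf2, complete coding transcripts held 45.7% and 63.7% of the TPM and 46.6% and 68.6% of the counts in the first quantification. In the second they held 34.1% and 48.4% of its TPM. Short transcripts weigh more in TPM than in counts.

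Soat1 was spread over transcripts of unequal length. Soat1-201, of 2925 bases, held 38.5% and 36.5% of the TPM, whereas Soat1-207, of 8371 bases, held 49.7% and 49.3% of the counts. Retained-intron transcripts held 29.5% and 29.4% of its TPM and 6.3% and 6.1% of its counts. In complete coding transcripts alone Soat1 measured 103 and 115 TPM, and Scarb1 193 and 188 TPM. Mvd and Hmgcs1 changed transcript with the quantification: the first gave Mvd 95.1% and 100% to the coding Mvd-201, the second 88.2% and 100% to a transcript annotated for nonsense-mediated decay. For Hmgcs1 both leading transcripts were coding.

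**Figure D4:**
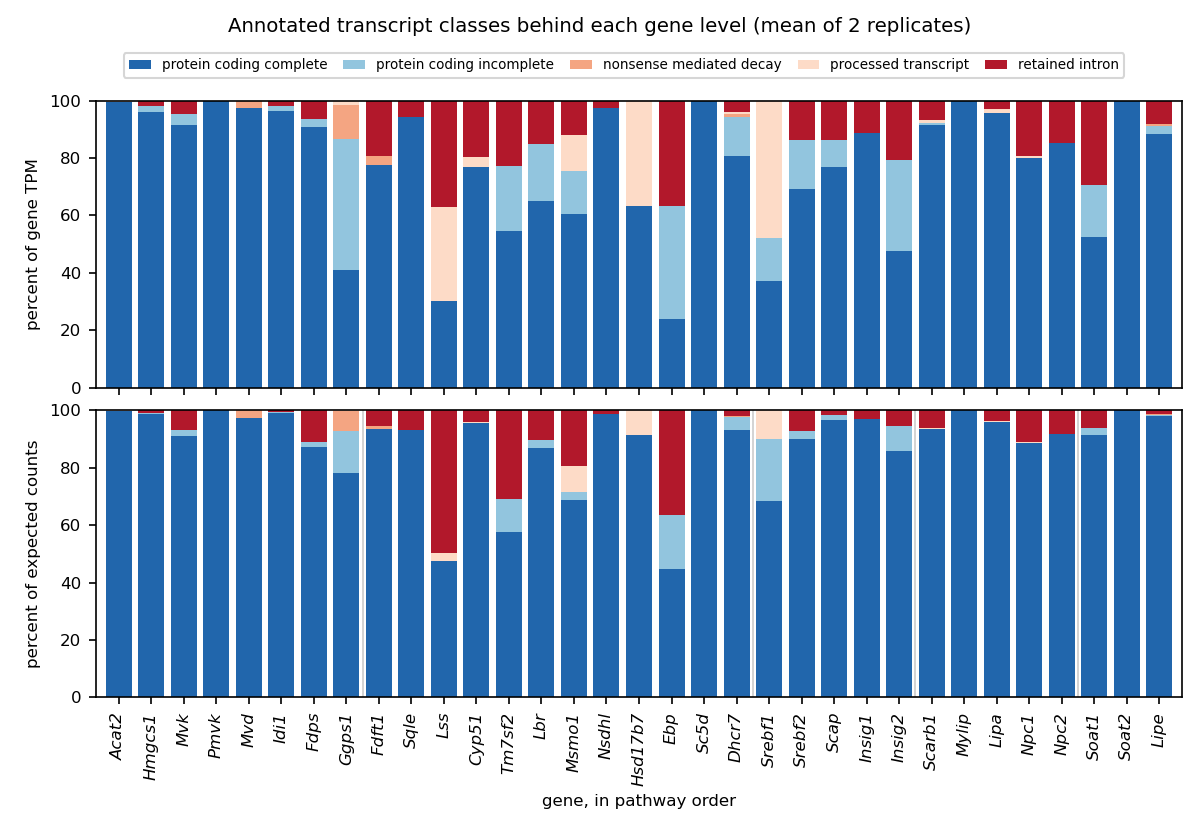
Share of each gene's level in the first quantification by annotated transcript class, as percent of TPM (top) and percent of expected counts (bottom), mean of 2 replicates, genes in pathway order. Complete coding transcripts (dark blue) hold most of both for the majority of genes. Srebf1, Lss, Ebp, Ggps1 and Insig2 have larger shares in other classes by TPM, and Lss and Ebp also by counts.

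For most members the deposited tables give little uncertainty in read assignment. The deposited posterior SD of the gene's count exceeded 1 count for 5 members, Acat2, Idi1, Fdps, Fdft1 and Tm7sf2, and was at most 3.63% of the count. Idi1 had 11.97 and 9.47 counts of posterior SD on its 648 and 557 counts. Exons of 11 members overlap those of a gene on the other strand, and 22 members have no such overlap. For Ggps1 the partner was Arid4b, for Cyp51 Akap9, for Srebf1 Rai1 and for Npc1 Rmc1, each above 10 TPM, and the shared bases were 5.44% of the exonic bases of Ggps1 or fewer for these 4 members. Apart from these and Ctsb, the partners stood at 1.94 TPM or less.

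The genes around the pathway were expressed alongside it. Of 41 listed genes, 39 reached 1 TPM in both replicates, and of 40 tested 2 were higher in replicate 1 and 8 in replicate 2 by the exact test, beside 30.0% of all genes in either direction. Among the listed electron donor genes the highest by level were Cyb5b at 106 and 116 TPM, Cyb5r3 at 71.8 and 73.3 TPM and Cyb5a at 67.8 and 70.5 TPM. Which of them serve the sterol oxidases was not tested. Of the isoprenoid branches, Fnta, a subunit of the protein prenyl transferases, had 34.8 and 35.1 TPM, Pggt1b, which attaches geranylgeranyl groups, 21.8 TPM in both, and Coq2, of ubiquinone synthesis, 20.1 and 20.7 TPM. The genes of SREBF processing and sterol response included the protease Mbtps1 at 58.2 and 54.2 TPM, and the oxysterol receptor Nr1h2 had 46.1 and 39.8 TPM. Gramd1b, which carries sterol from the plasma membrane to the endoplasmic reticulum, measured 176 and 171 TPM, near the level of Soat1 and Scarb1. Scp2, a sterol carrier, measured 60.8 and 64.4 TPM, and Nceh1, a cholesteryl ester hydrolase, 40.5 and 43.1 TPM. Of the genes of efflux and oxysterols, the exporter Abca1 had 41.9 and 45.2 TPM, the epoxide hydrolase Ephx1 30.7 and 36.2 TPM and Abcg1 6.14 and 5.81 TPM. The sterol carriers Stard4, at a log2 ratio of -0.30, and Stard5, at -0.40, were the 2 higher in replicate 1 (adjusted p 6.91e-05 and 0.000147 by the exact test). None of the 40 tested genes differed 2-fold.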

How the data were processed

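Total RNA from 2 adrenal glands was sequenced, per the labels from 300 ng with ERCC spike-ins, using Norgen extraction and NEB directional library protocols. The authors' notes name mm10 and the annotation M21. No source used here gives the aligner, the quantifier or a version. RSEM writes such column names and, for the second quantification, kallisto. Per the file headers, the deposited gene and transcript tables hold expected counts and TPM, a posterior SD of the count and, per transcript, a percent of the gene's TPM; the second holds estimated counts and TPM, summed here to genes (32074016 and 32964074 counts). No column was left out as another series' sample.

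The members and lists were chosen with earlier results of these data known. All members and the 3 highest of each pathway list are named, except 1 that is not reported here. Counts were rounded and scaled by TMM (factors 1.02 and 0.985). Ratios used a prior of 0.5 counts, and intervals are 95% Clopper-Pearson and cover counting error only. Pair ratios used log2(TPM + 0.01). Alternatives were DESeq2 size factors, total counts, spike-in sums, deposited TPM, other filters, the second quantification, rescaling to nuclear protein-coding genes and leaving out a replicate. Readings by complete coding transcripts, by counts and by the rescaled second quantification were added after seeing the data. The spike-ins had 286694 and 303828 counts. Transcript classes and coordinates are GENCODE M21's, matched by identifier for all 55536 genes. Tools were R 4.3.3, edgeR 4.0.16, DESeq2 1.42.0, Python 3.11.15 with scipy 1.17.1, numpy 2.4.6, matplotlib 3.10.9 and pandas 2.3.3. The test was checked on counts simulated with known changes and sampling error only. These held no other spread between libraries, so the check does not cover such spread.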

Additional observations from a re-analysis of the deposited data

How the results depend on the processing

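No paired analysis was possible because the labels give 1 group only. The median member level of 16.0 TPM became 30.7 in the second quantification, 44.0 rescaled to nuclear protein-coding genes, 42.8 with both and 10.6 in complete coding transcripts. The sum of 1063 TPM became 2001, 2918, 2791 and 804 under the same readings. Leaving out either replicate gave medians of 15.6 to 16.5 TPM and sums of 1053 to 1072 TPM. The leading transcript's share, 73.3% at the median, became 60.1% in the second quantification and 85.1% by counts (72.0% to 74.6% leaving out either replicate). The 9 members past the exact test became 16 under spike-in scaling (33.9% of all genes) and 7 to 12 under the others (17.6% to 32.6% of all genes). Spike-in scaling added 8 calls in the same direction and ended 2, and dropping the count filter ended 2. The members' median log2 ratio of 0.005 turned to -0.00527 with DESeq2 size factors, -0.0392 with total counts, -0.0745 with spike-ins and -0.0577 with deposited TPM. The log2 ratio of Scarb1 turned from 0.03 to -0.0458 with spike-ins. The cause of these shifts was not tested, apart from rescaling, which multiplies every level by construction. Detection held for 32 members, and for 30 at 5 TPM. With 1 library a side, the number of animals limits every ratio.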
